A study of Mus musculus with 34 samples.

Results

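Foxp3 binding in Treg cells of Batf-/- mice was set against Foxp3 binding in central Treg (cTreg) cells, to ask how far regulatory T cells that lack BATF resemble central Treg cells. The comparison takes 4 of the 34 samples of the series, 2 Foxp3 chromatin immunoprecipitation libraries of Batf-/- Treg cells and 2 of cTreg cells, and all 6396 peaks of the Foxp3 table. The other 4 Foxp3 libraries, 2 of WT Treg cells and 2 of effector Treg (eTreg) cells, entered the same fit and serve as landmarks. Batf-/- Treg cells were sorted as CD4+hCD2+ from C57BL6/J mice of genotype Foxp3-IRES-hCD2.Batf-/-, in which human CD2 marks the cells that express Foxp3 and no Cre that would limit the Batf deletion to a cell type is named. The other 3 groups came from Foxp3-IRES-hCD2 mice of the same strain: WT Treg cells were CD4+hCD2+, eTreg cells CD4+hCD2+ and low for CCR7, and cTreg cells CD4+hCD2+, high for CCR7 and low for CD44, with a further sort marker not described here. All cells came from lymph nodes and spleen, and the labels give no treatment, age, batch or pooling of animals. Batf-/- and WT Treg cells are thus bulk Treg cells, whereas cTreg and eTreg cells are sorted subsets, so that in the main comparison the genotype and the sort change together. What share of the Batf-/- Treg cells were central or effector cells is not given. Each library pools many cells, so binding in fewer cells and weaker binding in every cell cannot be told apart.

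Foxp3 is the forkhead transcription factor that defines Treg cells, and much of its binding falls on enhancers that other T cell factors already occupy. BATF is a small AP-1 factor without an activation domain of its own. It binds DNA as a dimer with Jun proteins, often beside IRF4 on composite elements, and is needed for the differentiation of effector Treg cells. Central Treg cells carry the homing receptor CCR7 and circulate through lymphoid organs. Effector Treg cells have lost it, and make more of molecules such as IL-10, TIGIT and ICOS.

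Promoter sequences are shown for 5 genes whose promoter window lay almost wholly under a Foxp3 peak that differed between Batf-/- Treg and cTreg cells. Cxcl10 encodes an interferon-induced chemokine, Rcc1l a mitochondrial protein and Tigit an inhibitory receptor of effector Treg cells, and Foxp3 was higher there in Batf-/- Treg cells. Kdm5c encodes a histone H3 lysine demethylase and Ncapg a condensin subunit, and Foxp3 was lower there. Each sequence is the 250 bases before the RefSeq transcription start in GRCm38.p6, the assembly of mm10, 5′ to 3′ on the gene's strand. The windows lie at chr5:92348890-92349139 on the minus strand (Cxcl10), chr5:134176768-134177017 on the minus strand (Rcc1l), chr16:43664185-43664434 on the minus strand (Tigit), chrX:152232977-152233226 on the plus strand (Kdm5c) and chr5:45669675-45669924 on the plus strand (Ncapg). Capitals mark matches to the motifs listed after the sequences.
Cxcl10: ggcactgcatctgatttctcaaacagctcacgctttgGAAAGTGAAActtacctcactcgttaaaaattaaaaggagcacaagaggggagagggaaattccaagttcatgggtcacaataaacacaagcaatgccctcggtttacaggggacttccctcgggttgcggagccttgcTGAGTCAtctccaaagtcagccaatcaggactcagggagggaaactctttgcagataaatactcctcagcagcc
Rcc1l: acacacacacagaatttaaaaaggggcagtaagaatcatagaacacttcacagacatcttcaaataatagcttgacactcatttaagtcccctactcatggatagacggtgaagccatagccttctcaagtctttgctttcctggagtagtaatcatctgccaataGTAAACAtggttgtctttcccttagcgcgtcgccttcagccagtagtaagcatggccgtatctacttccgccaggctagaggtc
Tigit: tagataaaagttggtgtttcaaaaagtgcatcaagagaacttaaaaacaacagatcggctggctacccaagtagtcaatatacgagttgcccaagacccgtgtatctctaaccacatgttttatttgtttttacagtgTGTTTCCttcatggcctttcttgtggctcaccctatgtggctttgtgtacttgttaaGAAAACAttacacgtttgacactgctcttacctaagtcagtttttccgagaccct
Kdm5c: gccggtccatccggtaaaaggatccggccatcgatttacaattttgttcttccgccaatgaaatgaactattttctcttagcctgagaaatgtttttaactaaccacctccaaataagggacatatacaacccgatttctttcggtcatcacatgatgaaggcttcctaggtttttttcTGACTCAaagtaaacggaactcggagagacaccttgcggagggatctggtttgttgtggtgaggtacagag
Ncapg: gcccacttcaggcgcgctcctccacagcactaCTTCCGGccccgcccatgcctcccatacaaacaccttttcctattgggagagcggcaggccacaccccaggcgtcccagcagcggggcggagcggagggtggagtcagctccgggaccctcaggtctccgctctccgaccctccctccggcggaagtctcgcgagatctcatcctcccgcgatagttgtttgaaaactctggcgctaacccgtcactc

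The motifs were searched on both strands: AP-1 as TGANTCA, forkhead as TGTTTNC, the cyclic AMP response element (CRE) as TGACGTCA, ETS as CCGGAAG and IRF as GAAANNGAAA. None of these motifs is contained in another. In the Cxcl10 window an AP-1 match lay between positions -74 and -68, counted back from the start, and an IRF match between -213 and -204. The Tigit window held forkhead matches at -112 to -106 and at -55 to -49, and the Rcc1l window held one at -84 to -78. An AP-1 match stood at -71 to -65 of Kdm5c and an ETS match at -218 to -212 of Ncapg. AP-1 matches were found in 6.13% of all 21263 promoter windows, in 4.66% of the 472 windows under any Foxp3 peak, in 6 of the 97 under a peak higher in Batf-/- Treg cells and in 1 of the 19 under a lower peak. The corresponding numbers were 16.0%, 21.0%, 16 and 5 for the forkhead motif and 8.98%, 18.9%, 17 and 3 for the ETS motif. They were 2.96%, 4.03%, 5 and 2 for the IRF motif, and 1.92%, 2.33%, 4 and 0 for CRE. AP-1 matches were thus as frequent under the higher peaks as in promoters at large. Most Foxp3 peaks are distal to promoters: 473 of 6396 (7.40%) touched such a window, and sequences of the distal peaks were not used here.

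Reads within peaks numbered 263541 and 198741 in the Batf-/- Treg libraries, 259559 and 316698 in WT Treg, 173516 and 393310 in eTreg and 164740 and 302207 in cTreg, and the total sequencing depth is unknown. Values below are normalised reads per peak of about 400 bp. No Foxp3 peak was assigned to Batf itself, so these data do not check the deletion. Of the markers of other cells, none of 11 B cell genes and none of 12 myeloid genes had a peak. Among 12 CD8 and NK cell genes 2 had 3 peaks, whose summed value was 164 and 135 in Batf-/- Treg, 121 and 166 in WT Treg, 115 and 140.1 in eTreg and 62.6 and 59.3 in cTreg libraries, and Cd8a, Cd8b1 and Ncr1 had none. The 1 of these peaks that was higher in Batf-/- Treg cells lay 7863 bp from Klrb1c, which encodes the NK1.1 antigen, with 91.5 and 96.5 in Batf-/- Treg and 26.6 and 20.8 in cTreg cells. Foxp3 binding does not measure expression, so the sorts themselves are not checked by these values. The part of other cells in the results was not tested.

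Foxp3 binding in Batf-/- Treg cells differed from that in cTreg cells at 2231 of 6396 peaks (34.9%), and was higher at 1385 (21.7%) and lower at 846 (13.2%). Differences were tested with limma on log2 of value plus 1, and called at an adjusted p under 0.05. Peaks called higher were nearest to 906 genes and had a median log2 fold change of 1.36, and those called lower were nearest to 587 genes, with a median of -1.24. Over all peaks the median was -0.05. The values of both groups did not overlap at 2166 peaks with Batf-/- Treg higher (33.9%) and at 2208 with it lower (34.5%), so a gap between 2 and 2 libraries is common here in either direction. Without cTreg replicate 1, the shallowest library, 927 peaks were called higher and 287 lower. Without cTreg replicate 2 these were 1149 and 408.

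The same fit placed Batf-/- Treg cells far closer to WT Treg than to cTreg cells. Between Batf-/- and WT Treg cells 285 peaks were called (4.46%), 35 higher (0.547%) and 250 lower (3.91%). WT Treg cells differed from cTreg cells at 2876 peaks (45.0%), 1624 higher (25.4%) and 1252 lower (19.6%), and eTreg from cTreg cells at 1646 (25.7%), 958 higher (15.0%) and 688 lower (10.8%). Batf-/- Treg and eTreg cells differed at 2478 peaks (38.7%), 1392 of them higher (21.8%) and 1086 lower (17.0%) in Batf-/- Treg. These comparisons share libraries, so their counts are given side by side only. The root mean square of the log2 fold change over all peaks was 1.02 for Batf-/- Treg against cTreg, 0.66 against WT Treg and 1.14 against eTreg cells. It was 1.20 for WT Treg against cTreg cells. Single libraries moved these counts: Batf-/- against WT Treg gave 571 calls without Batf-/- Treg replicate 1, 135 without WT Treg replicate 1 and 108 without WT Treg replicate 2. WT Treg against cTreg cells gave 1781 without cTreg replicate 1, eTreg against cTreg cells 1081 and 1030 without eTreg replicates 1 and 2, and Batf-/- Treg against eTreg cells 1517 without eTreg replicate 1.

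**Figure D1:**
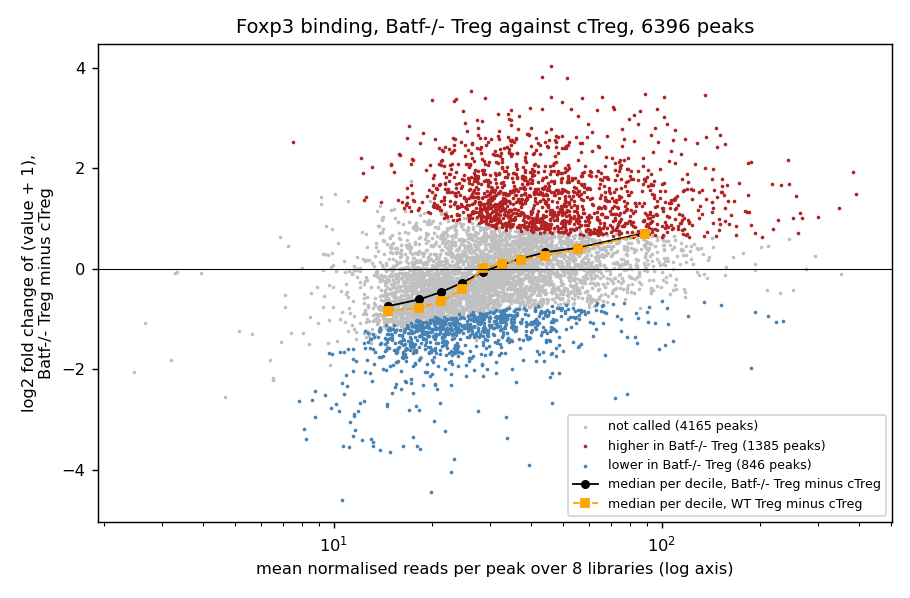
Log2 fold change of Foxp3 binding, Batf-/- Treg minus cTreg (vertical axis), against the mean normalised reads per peak over 8 libraries (horizontal log axis), with 1 point for each of the 6396 peaks. Red points are the 1385 peaks called higher and blue points the 846 called lower; the lines join medians per decile of peaks, and both lines climb from low to high peaks, through -0.74 in the lowest and 0.72 in the highest decile for Batf-/- Treg and through -0.84 and 0.70 for WT Treg.

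Library by library the Batf-/- Treg samples again stood between WT Treg and cTreg cells, and nearer to WT Treg. As a description over the 6396 peaks, Spearman's rho was 0.85 between the 2 Batf-/- Treg libraries, 0.75 to 0.83 between Batf-/- and WT Treg libraries, 0.40 to 0.59 between Batf-/- Treg and cTreg, and 0.27 to 0.39 between Batf-/- Treg and eTreg. WT Treg libraries had a rho of 0.39 to 0.54 with eTreg and of 0.28 to 0.40 with cTreg libraries. WT Treg was thus closer to eTreg than Batf-/- Treg was, and further from cTreg. The 2 Batf-/- Treg libraries were not alike in this: replicate 1 had 0.40 and 0.48 with the cTreg libraries and replicate 2 had 0.52 and 0.59. Their root mean square difference, 0.68 on the log2 scale, was the largest within any group, the others being 0.44 to 0.54. Peaks are not independent and share depth and width, so no p is given.

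**Figure D2:**
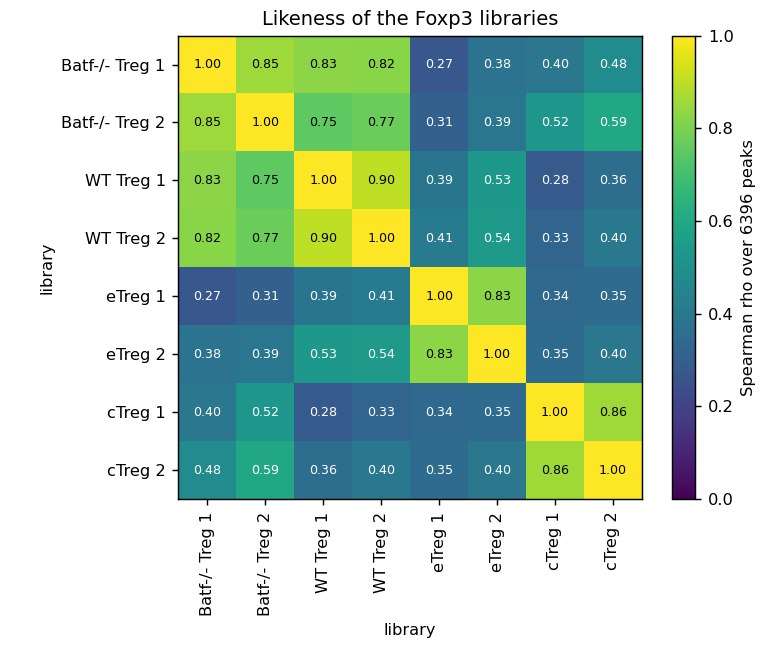
Spearman's rho between each pair of the 8 Foxp3 libraries over 6396 peaks, as a colour and a number, with libraries in the same order on both axes. Batf-/- Treg libraries reach 0.75 to 0.83 with WT Treg, 0.27 to 0.39 with eTreg and 0.40 to 0.59 with cTreg libraries.

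Part of the difference from cTreg cells followed the level of the peak and was shared with WT Treg cells. Among the decile of peaks with the lowest mean, 16 were called higher and 142 lower in Batf-/- Treg than in cTreg cells, with a median log2 fold change of -0.74. In the highest decile, with means of 66.2 to 392, 340 were higher and 35 lower, and the median was 0.72. For WT Treg against cTreg cells the medians of these deciles were -0.84 and 0.70, whereas for Batf-/- against WT Treg cells they stayed between 0.02 and 0.11 in all deciles. The highest decile of peaks of each library held 33.3% and 32.7% of the summed value in Batf-/- Treg, 31.8% and 32.7% in WT Treg, 24.2% and 26.3% in eTreg, and 25.8% and 27.4% in cTreg libraries. Bulk libraries thus had a steeper profile than libraries of sorted subsets, and whether the cells or the library preparation differ here cannot be told apart. With cyclic loess normalisation, which removes such a trend and was added after the data were seen, 1101 peaks were called higher and 720 lower. Of the 2231 calls 1476 were shared with it.

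Peaks at which all 4 bulk libraries lay on one side of all 4 sorted libraries were frequent. All Batf-/- and WT Treg libraries lay above all eTreg and cTreg libraries at 1164 peaks (18.2%) and below them at 950 (14.9%). Batf-/- Treg and cTreg libraries together lay above the other 4 at 244 peaks (3.81%) and below them at 460 (7.19%). Batf-/- Treg and eTreg libraries together stood apart at 52 peaks (above) and 45 (below). Of the 1164 peaks that were high in both bulk groups 945 were among those called higher than in cTreg cells, and of the 950 low ones 483 were among those called lower. Among all peaks 21.7% were called higher and 13.2% lower. The Batf-/- Treg and cTreg values took part in choosing these peaks, so a call in the other direction was not possible and these overlaps are a description.

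Where Batf-/- Treg cells differed from WT Treg cells, their median level was near that of cTreg cells, though single peaks departed from it. At the 250 peaks lower in Batf-/- than in WT Treg cells, the median of the group means was 11.4 in Batf-/- Treg, 43.3 in WT Treg, 42.2 in eTreg and 9.15 in cTreg cells. The contrast of eTreg with cTreg cells compares none of the libraries compared in choosing these peaks. Both contrasts use the same spread per peak, estimated from all 8 libraries, so their calls are not independent. eTreg was called higher than cTreg at 206 of the 250 (82.4%) and lower at none. For all peaks these shares were 15.0% and 10.8%. Against cTreg cells, 47 of the 250 (18.8%) were called higher and 36 (14.4%) lower in Batf-/- Treg cells, beside 21.7% and 13.2% of all peaks. Peaks of this set thus also differed from cTreg cells in either direction, and their median log2 fold change was 0.12. At the 35 peaks higher in Batf-/- than in WT Treg cells the medians were 30.9 in Batf-/- Treg, 10.2 in WT Treg, 22.0 in eTreg and 31.0 in cTreg cells. At 9 of the 35 (25.7%) eTreg was called lower than cTreg, against 10.8% of all peaks. Since the Batf-/- Treg libraries took part in choosing these peaks, their nearness to cTreg cells there is a description.

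The peaks that separate eTreg from cTreg cells were then followed in Batf-/- Treg cells. At the 958 peaks higher in eTreg than in cTreg cells the median level was 23.4 in Batf-/- Treg, 39.6 in WT Treg, 39.6 in eTreg and 11.6 in cTreg cells. Batf-/- and WT Treg libraries entered the choice of these peaks only through the spread shared by all 8 libraries. In Batf-/- against WT Treg cells 206 of the 958 (21.5%) were lower and none higher, against 3.91% and 0.547% of all peaks. The median log2 fold change of this contrast was -0.58. Between Batf-/- Treg and cTreg cells 451 were higher and 27 lower, with a median of 0.85, where WT Treg against cTreg cells had 1.66. By these medians Batf-/- Treg cells lay between WT Treg and cTreg cells at sites of higher binding in eTreg cells. At the 688 peaks lower in eTreg than in cTreg cells the medians were 43.5 in Batf-/- Treg, 34.4 in WT Treg, 18.0 in eTreg and 46.3 in cTreg cells. Of these, 9 were higher and none lower in Batf-/- than in WT Treg cells, and 102 were higher and 157 lower than in cTreg cells. The set against cTreg cells shares the cTreg libraries with the choice of peaks. Leaving out single libraries of Batf-/- or WT Treg cells gave 76 to 301 lower peaks among the 958, the lowest without WT Treg replicate 2 and the highest without Batf-/- Treg replicate 1, and at most 2 higher ones.

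**Figure D3:**
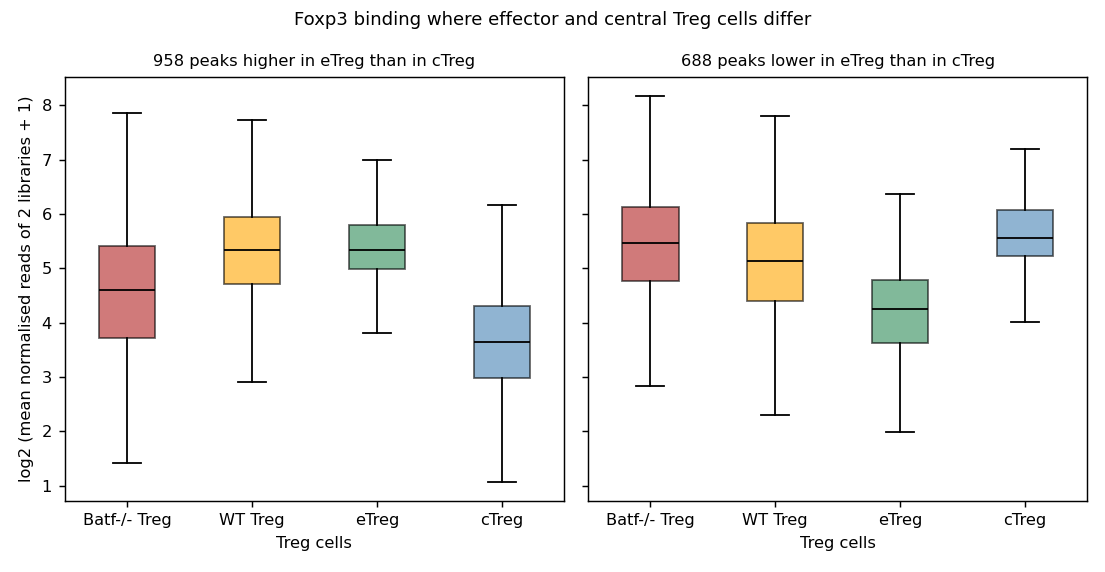
Foxp3 binding, as log2 of the mean normalised reads of 2 libraries plus 1 (vertical axis), in Batf-/- Treg, WT Treg, eTreg and cTreg cells at the 958 peaks higher (left) and the 688 peaks lower (right) in eTreg than in cTreg cells. Boxes span the quartiles with the median as a line, and outlying peaks are not drawn; on the left the Batf-/- Treg median of 23.4 reads lies between 39.6 in WT Treg and 11.6 in cTreg, and on the right that of 43.5 lies near 46.3 in cTreg.

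The contrast of eTreg with WT Treg cells has no library in common with that of Batf-/- Treg with cTreg cells, though both set a bulk against a sorted population. Both also use the same spread per peak, estimated from all 8 libraries. Of the 919 peaks higher in eTreg than in WT Treg cells (14.4%), 12 (1.31%) were higher and 298 (32.4%) lower in Batf-/- Treg than in cTreg cells. Of the 1347 lower in eTreg (21.1%), 860 (63.8%) were higher and 12 (0.891%) lower, beside 21.7% and 13.2% of all peaks. Leaving out cTreg replicate 1 made these counts 7 and 133, and 620 and 6. Without eTreg replicate 1 the contrast of eTreg with WT Treg cells gave 212 higher and 752 lower peaks in place of 919 and 1347, and the calls fell to 964 in place of 2266. The bulk and the sorted libraries thus differed in like manner on either side. The median mean was 21.9 at the 919 peaks and 46.0 at the 1347, and the share of peaks called higher also rose with level. The part of level in this likeness was not tested.

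A few peaks bring out the cTreg-like pattern. They were chosen after their values were seen, as those above the median level with the widest gap between Batf-/- Treg and cTreg libraries on one side and the other 4 libraries. The peak 56986 bp from Pkdcc, which encodes a secreted protein kinase, had 4.06 and 3.86 in Batf-/- Treg, 82.9 and 81.0 in WT Treg, 64.6 and 73.8 in eTreg and 4.00 and 3.71 in cTreg cells. Within Itgb3, the integrin beta-3 subunit, the values were 7.11 and 9.01 in Batf-/- Treg, 83.9 and 66.0 in WT Treg, 63.4 and 77.3 in eTreg and 7.99 and 8.16 in cTreg cells. At both sites the Batf-/- Treg and cTreg libraries were low and overlapped. A count of 3 reads gives 3.05 and 3.86 in the Batf-/- Treg and 4.00 and 2.22 in the cTreg libraries. The low values at Pkdcc thus stand for few reads. Peaks near Mfap5, Fam185a and Ankrd46 had the same pattern, with Batf-/- Treg values of 0 to 10.2 and WT Treg values of 47.5 to 157. The opposite pattern was shallower. Within Samhd1, a dNTP hydrolase, Foxp3 stood at 67.1 and 69.5 in Batf-/- Treg, 33.4 and 44.3 in WT Treg, 32.9 and 25.4 in eTreg and 63.9 and 85.3 in cTreg cells. Within Jak1, a cytokine receptor kinase, it stood at 45.7 and 45.0 in Batf-/- Treg, 18.2 and 27.6 in WT Treg, 27.9 and 26.5 in eTreg and 45.3 and 46.0 in cTreg cells. Batf-/- Treg and cTreg cells were the higher groups at these 2 sites, and peaks near Sipa1l1, Olig3 and Cfap54 were ordered alike. The peak near Olig3 was nonetheless called lower in Batf-/- Treg than in cTreg cells, a call lost under 8 of 15 alternatives.

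Genes of effector Treg cells held the highest share of raised peaks among the larger lists. Of 57 listed genes 33 had a peak, with 105 peaks in all, of which 55 (52.4%) were higher and 1 lower in Batf-/- Treg than in cTreg cells, beside 21.7% and 13.2% of all peaks. Their median log2 fold change was 0.83, against -0.05 for all peaks. Among list peaks above the median level 38 of 60 were higher and 0 lower, against 1058 and 275 of all 3198 such peaks, and with cyclic loess normalisation 45 were higher and 2 lower. The counts were 36 and 0 without cTreg replicate 1. The same peaks had a median of 1.12 in WT Treg against cTreg cells and of 0.75 in eTreg against cTreg cells. Against WT Treg cells 12 of the 105 were lower and 1 higher in Batf-/- Treg cells.

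Il10, the gene of the anti-inflammatory cytokine IL-10, had the largest difference of the named peaks. The peak 14000 bp from it (chr1:131038770-131039170) held 104 and 43.7 in Batf-/- Treg, 93.0 and 57.6 in WT Treg, 25.3 and 38.1 in eTreg and 2.66 and 3.71 in cTreg cells. Batf-/- Treg cells lay with WT Treg cells here and far above cTreg cells, whose values stand for 2 and 5 reads (log2 fold change 4.04, SE 0.38, adjusted p = 9.78e-08). At the Tigit promoter (chr16:43664097-43664497) Foxp3 had 287 and 167 in Batf-/- Treg, 415 and 389 in WT Treg, 209 and 249.7 in eTreg and 59.9 and 77.1 in cTreg cells. The Batf-/- Treg libraries were at the eTreg level and above cTreg cells (log2 fold change 1.67, SE 0.26, adjusted p = 2.85e-05). They also lay below both WT Treg libraries, but that difference was not called (log2 fold change -0.87, limma, adjusted p = 0.0515). Within Rora, a nuclear receptor gene, Foxp3 had 121 and 86.2 in Batf-/- Treg, 162 and 197 in WT Treg, 68.4 and 80.2 in eTreg and 17.3 and 22.2 in cTreg cells. No Batf-/- Treg library overlapped cTreg there (2.32 on the log2 scale, SE 0.26, adjusted p = 5.82e-07), and 6 of the 8 peaks of Rora were called higher.

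Other effector genes varied in where Batf-/- Treg cells stood, between WT Treg and cTreg cells at Nfil3, above both at Ccr2 and close to cTreg cells at Maf. Within Nfil3, a basic leucine zipper factor, values were 51.8 and 29.6 in Batf-/- Treg, 131 and 119 in WT Treg, 35.5 and 47.3 in eTreg and 4.00 and 2.97 in cTreg cells. This site was higher than in cTreg cells (3.18 on the log2 scale, SE 0.33, adjusted p = 2.44e-07) and lower than in WT Treg cells (log2 fold change -1.65, adjusted p = 0.00289). The peak 21952 bp from Ccr2, a chemokine receptor gene, had 266 and 151 in Batf-/- Treg, 90.0 and 74.3 in WT Treg, 15.2 and 28.8 in eTreg and 21.3 and 32.6 in cTreg cells, and here Batf-/- Treg cells also exceeded WT Treg cells (log2 fold change 1.28, adjusted p = 0.0169). Klrg1, an inhibitory receptor of terminally differentiated cells, had a peak with 50.8 and 27.0 in Batf-/- Treg and 16.0 and 3.71 in cTreg cells (adjusted p = 0.000561), and Il1rl1, the IL-33 receptor, one with 23.4 and 15.4 in Batf-/- Treg and 5.33 and 5.19 in cTreg cells (adjusted p = 0.00191). At Maf, a regulator of IL-10, the peak 20094 bp away was close to the cTreg level, with 6.10 and 9.01 in Batf-/- Treg, 28.3 and 37.6 in WT Treg, 49.4 and 50.8 in eTreg and 2.66 and 2.22 in cTreg cells. Its call against cTreg cells (log2 fold change 1.29, adjusted p = 0.0238) was lost under 8 of 15 alternatives, among them leaving out Batf-/- Treg replicate 2 (1.05), cTreg replicate 1 (1.39) or cTreg replicate 2 (1.20), while it was lower than in WT Treg cells (log2 fold change -2.00, adjusted p = 0.00592). Irf4 and Ccr8, a factor and a chemokine receptor of effector Treg cells, did not pass the test at their strongest peaks: Irf4 had 44.7 and 45.0 in Batf-/- Treg and 41.3 and 44.5 in cTreg cells, and Ccr8 43.7 and 38.6 in Batf-/- Treg and 25.3 and 31.1 in cTreg cells.

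**Figure D4:**
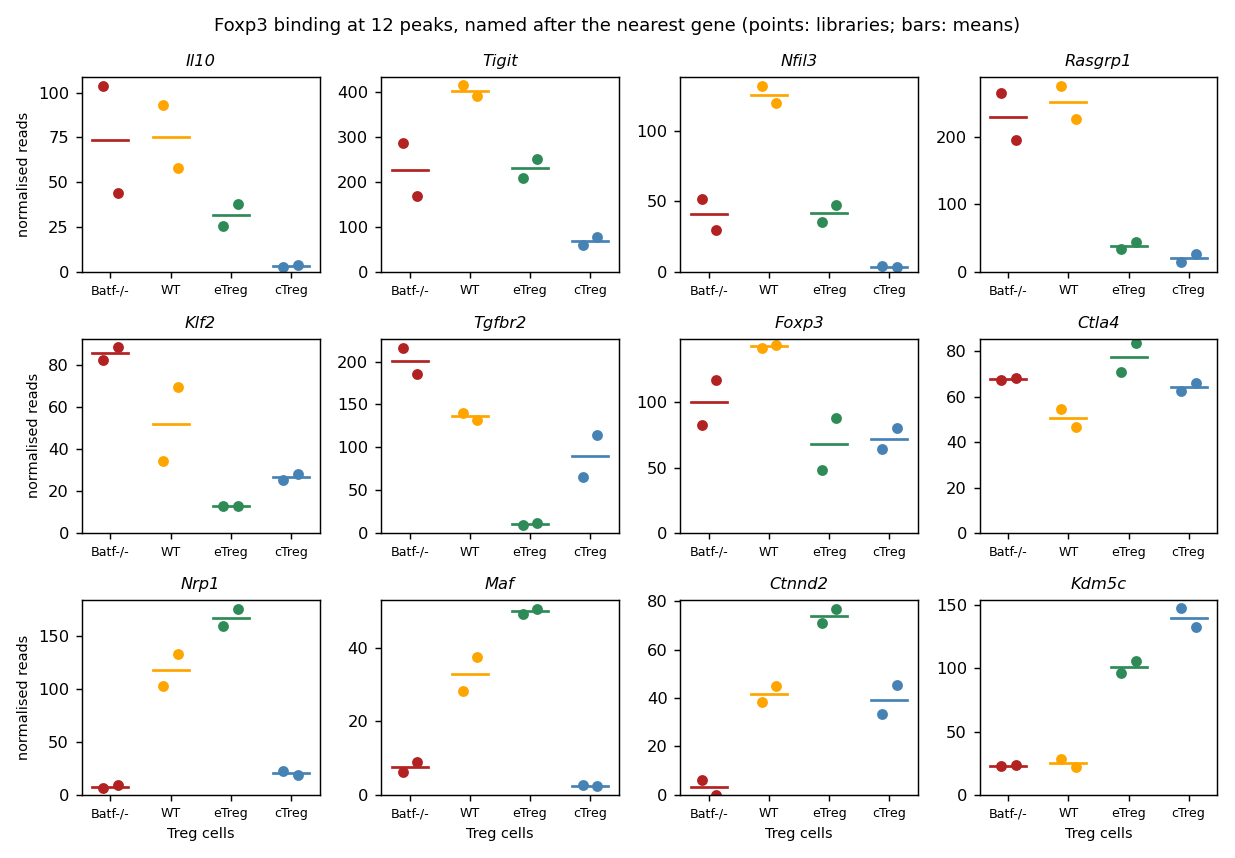
Normalised reads (vertical axes, from 0) at 12 peaks named after the nearest gene, in Batf-/- Treg, WT Treg, eTreg and cTreg cells; points are libraries and bars are means of 2. Il10, Tigit, Nfil3, Rasgrp1 and Klf2 are higher in Batf-/- Treg than in cTreg cells; Nrp1, Ctnnd2 and Kdm5c are lower; Foxp3 and Ctla4 did not pass the test.

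Peaks of central and naive T cell genes were called higher in Batf-/- Treg than in cTreg cells somewhat more often than all peaks, and lower about as often. In this list 37 of 46 genes had 147 peaks, of which 45 (30.6%) were higher and 19 (12.9%) lower than in cTreg cells, beside 21.7% and 13.2% of all peaks, with a median log2 fold change of 0.22. In eTreg against cTreg cells 9 of these peaks were higher and 63 lower, with a median of -0.66, and in WT Treg against cTreg cells 39 were higher and 31 lower, with a median of -0.02. With cyclic loess normalisation 32 were higher and 15 lower, and the median was -0.01. Without cTreg replicate 1 the counts were 26 and 2, and without cTreg replicate 2 they were 41 and 7. The list held 100 peaks above the median level of all peaks, 41 of them higher and 5 lower. Of all such peaks 33.1% were higher and 8.60% lower. At the strongest peaks of Klf2, Tgfbr2 and Satb1 eTreg cells were the lowest group. At Tcf7 the eTreg and cTreg libraries overlapped as the lowest groups, and at Foxo1 and Foxp1 cTreg cells were the lowest. Klf2, a factor that drives S1pr1, had 82.3 and 88.8 in Batf-/- Treg, 34.4 and 69.3 in WT Treg, 12.7 and 12.7 in eTreg and 25.3 and 28.2 in cTreg cells at a peak 15283 bp away. The order placed Batf-/- Treg highest and eTreg lowest, with no overlap between Batf-/- Treg and cTreg cells (log2 fold change 1.64, SE 0.32, adjusted p = 0.000347).

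The same order held at Tgfbr2, a TGF-beta receptor subunit, whose peak 12258 bp away had 216 and 185 in Batf-/- Treg, 141 and 132 in WT Treg, 8.87 and 12.1 in eTreg and 65.3 and 115 in cTreg cells. It was higher than in cTreg cells (log2 fold change 1.20, adjusted p = 0.00157), but not without cTreg replicate 1 (0.80, adjusted p = 0.0764) or with quantile normalisation (0.65, adjusted p = 0.0756; range over the alternatives 0.00044 to 0.0764). Satb1, a chromatin organiser, had 237 and 139 in Batf-/- Treg, 144 and 136 in WT Treg, 15.2 and 12.7 in eTreg and 90.6 and 121 in cTreg cells at a peak 70840 bp away. Its call (log2 fold change 0.79, adjusted p = 0.0255) was lost under 5 of 15 alternatives, including leaving out Batf-/- Treg replicate 1 (0.41) or cTreg replicate 1 (0.58), and adjusted p reached 0.661 with quantile normalisation. Only the eTreg libraries were low at this peak. Tcf7, the gene of the stem-like factor TCF-1, had 144 and 190.4 in Batf-/- Treg, 62.1 and 61.1 in eTreg and 61.3 and 64.5 in cTreg cells (adjusted p = 0.000101). Foxo1, a factor that sustains the resting state, had 60.0 and 48.9 in Batf-/- Treg, 25.3 and 28.3 in eTreg and 18.6 and 15.6 in cTreg cells (adjusted p = 0.000184). Within Foxp1, a forkhead relative of Foxp3, values were 214 and 157 in Batf-/- Treg, 278 and 288 in WT Treg, 95 and 145 in eTreg and 22.6 and 44.5 in cTreg cells (log2 fold change 2.49, adjusted p = 7.50e-07), and 11 of its 21 peaks were higher and 1 lower.

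The strongest peaks of several central genes were not called different. At Ccr7, the gene of a receptor used in the sort, Foxp3 had 81.3 and 111 in Batf-/- Treg and 79.9 and 85.3 in cTreg cells, and the 95% interval of the log2 fold change was -0.34 to 0.74. Lef1, the partner of TCF-1, had 84.3 and 109 in Batf-/- Treg and 67.9 and 79.3 in cTreg cells, with an interval of -0.16 to 0.93, where eTreg cells had 19.0 and 21.9. S1pr1, the egress receptor, had 38.6 and 55.3 in Batf-/- Treg and 46.6 and 47.4 in cTreg cells, with an interval of -0.69 to 0.64. All 3 intervals lie within 2-fold on either side. Weaker peaks of the first pair of genes were called, 1 of the 2 peaks of Ccr7 as higher (log2 fold change 1.59) and 1 of the 3 peaks of Lef1 as lower (-0.79), whereas neither of the 2 peaks of S1pr1 was. Il6st, the gp130 subunit of the IL-6 receptor family, went the other way: 4 of its 11 peaks were lower and 1 higher, and the median over the 11 was -0.93. The peaks of this gene other than the raised one had means of 11.5 to 19.1 in Batf-/- Treg and of 10.3 to 39.2 in cTreg cells.

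The genes that define all Treg cells had peaks called in both directions, as all peaks together did. Of 26 Treg core genes 15 had 69 peaks, with a median log2 fold change of 0.28. Of these peaks 21 (30.4%) were higher and 7 (10.1%) lower, beside 21.7% and 13.2% of all peaks. With cyclic loess normalisation these counts were 15 and 7. Without cTreg replicate 1 they were 10 and 2, beside 927 and 287 of all 6396 peaks. The list held 47 peaks above the median level of all peaks, 17 of them higher and 3 lower. Of all such peaks 33.1% were higher and 8.60% lower. At Foxp3 itself, the strongest peak lay within the gene (chrX:7583928-7584328) and had 82.3 and 117 in Batf-/- Treg, 142 and 144 in WT Treg, 48.1 and 88.2 in eTreg and 63.9 and 80.1 in cTreg cells. Batf-/- Treg values exceeded cTreg values by less than the test could call (log2 fold change 0.45, SE 0.28, adjusted p = 0.206). The other of the 2 peaks of Foxp3 averaged 48.0 in Batf-/- Treg and 21.3 in cTreg cells and was called higher (log2 fold change 1.14, adjusted p = 0.0118). Ctla4, an inhibitory receptor, had 67.1 and 68.2 in Batf-/- Treg, 54.6 and 46.8 in WT Treg, 71.0 and 83.6 in eTreg and 62.6 and 66.0 in cTreg cells at a peak 10274 bp away, and the interval of the log2 fold change was -0.44 to 0.58. Of its 5 peaks 1 was called higher (log2 fold change 1.01, adjusted p = 0.0164) and none lower. Ikzf2, the gene of Helios, held 168 and 134 in Batf-/- Treg and 38.6 and 65.2 in cTreg cells (log2 fold change 1.56, SE 0.26, adjusted p = 7.88e-05). Within Il2ra, the IL-2 receptor alpha chain, Foxp3 had 175 and 124 in Batf-/- Treg and 91.9 and 95.6 in cTreg cells. That difference (log2 fold change 0.64, adjusted p = 0.0383) was lost under 8 of 15 alternatives, came to -0.0037 with cyclic loess normalisation, and was 0.39 without Batf-/- Treg replicate 1, 0.61 without cTreg replicate 1 and 0.67 without cTreg replicate 2.

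Nrp1, a surface receptor of thymus-derived Treg cells, was the 1 gene of the 31 examined at their strongest peak that was called lower in Batf-/- Treg than in cTreg cells. The peak 44450 bp from it (chr8:128549726-128550126) had 6.10 and 9.01 in Batf-/- Treg, 103 and 134 in WT Treg, 159.7 and 176 in eTreg and 22.6 and 18.5 in cTreg cells. Batf-/- Treg libraries were the lowest of all 8, below cTreg (log2 fold change -1.35, SE 0.28, adjusted p = 0.000771). A neighbouring peak at chr8:128547360-128547760 averaged 1.79 in Batf-/- Treg, 37.0 in WT Treg, 73.9 in eTreg and 7.92 in cTreg cells (log2 fold change -1.66, adjusted p = 0.00595). Yet a peak within the gene (chr8:128504059-128504459) had 45.7 and 47.6 in Batf-/- Treg, 72.8 and 49.3 in WT Treg, 39.3 and 33.5 in eTreg and 6.66 and 12.6 in cTreg cells, and was higher (log2 fold change 2.22, adjusted p = 1.95e-05). In all, 5 of the 9 peaks of Nrp1 were lower and 1 was higher. Icos, a costimulatory receptor gene, likewise varied between its 10 peaks, of which 4 were higher. The strongest had 44.7 and 47.6 in Batf-/- Treg and 73.3 and 55.6 in cTreg cells and did not pass the test (adjusted p = 0.196), and another, at chr1:60974290-60974690, had 96.5 and 75.9 in Batf-/- Treg and 16.0 and 24.5 in cTreg cells (log2 fold change 2.06, adjusted p = 1.10e-05). Different sites of 1 gene thus followed different groups.

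Among genes of AP-1 and related factors, those with a called peak had higher Foxp3 binding in Batf-/- Treg than in cTreg cells. Of 28 listed genes of AP-1, BATF and IRF factors 9 had 23 peaks, of which 13 (56.5%), in 6 genes, were higher and 0 lower by limma, beside 21.7% and 13.2% of all peaks, with a median log2 fold change of 1.17. Without cTreg replicate 1 the counts were 11 and 0, and with cyclic loess normalisation 11 and 2. Of 18 list peaks above the median level of all peaks 9 were higher and 0 lower, beside 33.1% and 8.60% of all such peaks. The peak 10546 bp from Atf3, a stress-induced member, had 210.4 and 135 in Batf-/- Treg, 164 and 189.6 in WT Treg, 39.3 and 49.0 in eTreg and 17.3 and 28.2 in cTreg cells. Bulk and sorted groups did not overlap there (log2 fold change of Batf-/- Treg against cTreg 2.88, SE 0.28, adjusted p = 9.78e-08). Within Bach2, a repressor that competes at AP-1 sites, a peak at chr4:32334160-32334560 had 79.3 and 52.8 in Batf-/- Treg, 51.6 and 61.0 in WT Treg, 6.34 and 7.50 in eTreg and 7.99 and 12.6 in cTreg cells. The strongest peak of Bach2 had 146 and 135 in Batf-/- Treg and 55.9 and 68.9 in cTreg cells (log2 fold change 1.17, adjusted p = 0.000747), a call lost only with cyclic loess normalisation (0.52, adjusted p = 0.0611; range 0.000223 to 0.0611). The peak 29033 bp from Fos, a dimer partner of Jun, had 111 and 212 in Batf-/- Treg and 34.6 and 47.4 in cTreg cells (adjusted p = 4.31e-05). In eTreg against cTreg cells the list's median was 0.01, with 5 peaks higher and 3 lower. In WT Treg against cTreg cells it was 1.30, with 15 higher and 1 lower.

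The T cell receptor list shows the same division within genes. Of 49 genes of receptor and costimulatory signalling 33 had 125 peaks, with a median log2 fold change of 0.31. Of these peaks 39 (31.2%) were higher and 9 (7.20%) lower, beside 21.7% and 13.2% of all peaks. With cyclic loess normalisation these counts were 26 and 15, and without cTreg replicate 1 they were 28 and 1. Of 86 list peaks above the median level of all peaks 37 were higher and 5 lower, beside 33.1% and 8.60% of all such peaks. The peak 47510 bp from Rasgrp1, an activator of Ras, had 265 and 196 in Batf-/- Treg, 276 and 227 in WT Treg, 32.9 and 44.4 in eTreg and 14.7 and 26.7 in cTreg cells (log2 fold change 3.46, SE 0.28, adjusted p = 2.61e-08). Of the other 7 peaks of this gene none was higher and 1 was lower. Cd247, the zeta chain of the receptor, had 301 and 346 in Batf-/- Treg, 154 and 246 in WT Treg, 25.3 and 31.1 in eTreg and 47.9 and 52.6 in cTreg cells (adjusted p = 9.78e-08). Ptprc, the CD45 phosphatase, had 265 and 183 in Batf-/- Treg and 26.6 and 48.2 in cTreg cells (adjusted p = 4.01e-07). At these 3 peaks every library of both bulk groups lay above every library of both sorted subsets.

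Foxp3 partner factors and T helper genes had smaller medians, and their counts stand beside 21.7% higher and 13.2% lower among all peaks. In the partner list 24 of 28 genes had 113 peaks, 41 (36.3%) of them higher and 16 (14.2%) lower, with a median log2 fold change of 0.24. Without cTreg replicate 1 the counts were 23 and 4, without cTreg replicate 2 they were 35 and 5, and with cyclic loess normalisation 26 and 10. Of 79 partner peaks above the median level of all peaks 37 were higher and 6 lower, beside 33.1% and 8.60% of all such peaks. Stat5b, which carries the IL-2 signal, had 129 and 95.2 in Batf-/- Treg and 14.7 and 25.9 in cTreg cells (log2 fold change 2.45, adjusted p = 1.50e-06). Runx1, a Foxp3 partner, had 119 and 127 in Batf-/- Treg and 40.0 and 68.2 in cTreg cells at a peak 283 bp away. The call (log2 fold change 1.22, adjusted p = 0.00138) was lost without cTreg replicate 1 (0.84, adjusted p = 0.0591) and with cyclic loess normalisation (0.63, adjusted p = 0.052; range 0.000251 to 0.0591). Of 30 T helper genes 13 had 43 peaks, 15 (34.9%) higher and 3 (6.98%) lower, with a median of 0.21, and without cTreg replicate 1 these were 12 and 1. Of 24 T helper peaks above the median level 10 were higher and 1 lower. Their median was 0.17, below the 0.36 of all such peaks. Within Stat4, the IL-12 signal transducer, Foxp3 had 90.4 and 47.6 in Batf-/- Treg, 50.6 and 25.9 in WT Treg, 8.87 and 16.1 in eTreg and 5.33 and 8.90 in cTreg cells (log2 fold change 3.07, adjusted p = 7.15e-06). Housekeeping genes, as a control, had 4 peaks in 4 of 20 genes, 1 of them higher, at Polr2a, with 56.9 and 32.2 in Batf-/- Treg and 17.3 and 7.41 in cTreg cells (adjusted p = 0.00116).

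**Figure D5:**
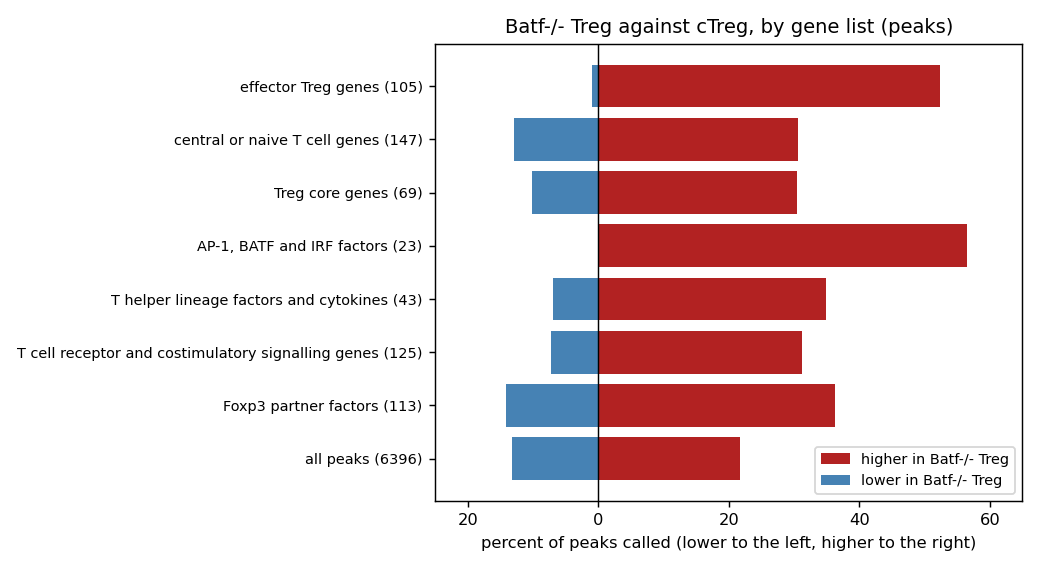
Percent of the peaks of each gene list called higher (red, to the right) or lower (blue, to the left) in Batf-/- Treg than in cTreg cells, with the number of peaks in brackets. AP-1 and effector Treg genes reach 56.5% and 52.4% higher, and all peaks together 21.7% higher and 13.2% lower.

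The largest differences above the median level lay mostly outside these lists. After Il10, the highest were at a peak 44526 bp from Abhd17c, a depalmitoylase, with 72.2 and 52.8 in Batf-/- Treg, 65.7 and 75.2 in WT Treg, 35.5 and 38.1 in eTreg and 4.00 and 2.97 in cTreg cells (log2 fold change 3.82, SE 0.32), and 45412 bp from Nampt, an enzyme of NAD salvage, with 90.4 and 56.6 in Batf-/- Treg, 108 and 103 in WT Treg, 15.2 and 28.8 in eTreg and 4.00 and 4.45 in cTreg cells (log2 fold change 3.80, SE 0.34). Bicdl1, a dynein adaptor, had 192 and 165 in Batf-/- Treg, 138 and 160.4 in WT Treg, 10.1 and 17.3 in eTreg and 12 and 18.5 in cTreg cells. At the first of these the eTreg level lay between the bulk groups and cTreg, and at the last it overlapped that of cTreg. Adjusted p-values of these 3 peaks were 2.61e-08, 5.28e-08 and 2.61e-08. Peaks near Slc17a6, Upb1 and Gm4832 followed, with log2 fold changes of 3.42 to 3.43.

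On the lower side, Ctnnd2 stood apart as a site where Batf-/- Treg cells lay far below all WT groups. Within this gene, which encodes delta-catenin, Foxp3 had 6.10 and 0 in Batf-/- Treg, 38.4 and 45.1 in WT Treg, 71.0 and 76.7 in eTreg and 33.3 and 45.2 in cTreg cells (chr15:30610587-30610987; log2 fold change -3.90, SE 0.53, adjusted p = 6.85e-06). It overlaps BATF and IRF4 peaks and was lower than in WT Treg cells as well (log2 fold change -4.00, adjusted p = 2.49e-05). At the other 7 of the 8 largest, every library of both bulk groups lay below every library of both sorted groups. The peak 11489 bp from H2az1, a histone variant gene, had 3.05 and 10.3 in Batf-/- Treg, 6.07 and 1.67 in WT Treg, 51.9 and 56.5 in eTreg and 82.6 and 57.8 in cTreg cells (log2 fold change -3.37, adjusted p = 1.40e-05). Peaks within Snx29, Sctr and St6galnac5 and 1 peak with no protein-coding gene within 100000 bp, at chr9:14078601-14079001, had log2 fold changes between -2.95 and -2.15.

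At promoters Foxp3 was called lower less often than at all peaks. It was called higher about as often when level was left aside, but less often among peaks above the median level. Above the median level of all peaks 86 of 364 promoter peaks (23.6%) were higher and 14 (3.85%) lower, beside 33.1% and 8.60% of all such peaks. Of all 473 peaks on a promoter window 97 (20.5%) were higher and 19 (4.02%) lower, against 21.7% and 13.2% of all peaks. With cyclic loess normalisation 43 were higher and 43 lower, beside 1101 and 720 of all 6396 peaks. Leaving out cTreg replicate 1 gave 60 and 3. At Cxcl10, whose window is printed above, Foxp3 had 55.9 and 51.5 in Batf-/- Treg, 41.5 and 47.6 in WT Treg, 35.5 and 27.1 in eTreg and 6.66 and 11.9 in cTreg cells (log2 fold change 2.46, SE 0.33, adjusted p = 5.73e-06). The cTreg libraries alone were low there. At Rcc1l it had 304 and 346 in Batf-/- Treg, 356 and 256 in WT Treg, 124 and 148 in eTreg and 108 and 91.9 in cTreg cells (adjusted p = 1.09e-05), and the peak at the edge of the Slmap window had 624 and 570.0 in Batf-/- Treg and 136 and 182 in cTreg cells (adjusted p = 5.89e-06). The Kdm5c promoter had 22.4 and 23.2 in Batf-/- Treg, 28.3 and 21.7 in WT Treg, 96.3 and 106 in eTreg and 148 and 133 in cTreg cells (log2 fold change -2.57, SE 0.26, adjusted p = 1.62e-07). Both bulk groups were low at this X-linked promoter. Ncapg had 27.4 and 25.7 in Batf-/- Treg, 45.5 and 43.4 in WT Treg, 38.0 and 43.8 in eTreg and 65.3 and 62.3 in cTreg cells, and there Batf-/- Treg cells were the lowest group (adjusted p = 0.00113). Supt7l, a subunit of a histone acetyltransferase complex, had 30.5 and 21.9 in Batf-/- Treg and 51.9 and 63.0 in cTreg cells (log2 fold change -1.12, adjusted p = 0.00581), and the call was lost without cTreg replicate 2 (-0.98, adjusted p = 0.0648; range 0.00118 to 0.0648).

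The deposited BATF and IRF4 peaks, which are separate readouts in Treg and conventional T cells with BATF, were laid over the Foxp3 peaks. Peaks higher in Batf-/- Treg than in cTreg cells were those that BATF occupies in WT cells more often than the lower ones: 69.0% of the higher, 28.5% of the lower and 48.2% of all peaks overlapped a BATF peak by at least 1 bp, and 61.7%, 21.9% and 39.7% overlapped an IRF4 peak. Of the 2143 peaks with BATF and IRF4 727 (33.9%) were higher and 140 (6.53%) lower, with a median log2 fold change of 0.38. For 938 peaks with BATF only the counts were 229 and 101, and for 398 with IRF4 only 127 and 45. Of the 2917 peaks with neither, 302 (10.4%) were higher and 560 (19.2%) lower, with a median of -0.43. The classes also differ in level, with a median mean of 42.9 in peaks with BATF and IRF4 and of 21.6 in those with neither. Above the median level of all peaks 636 of 1730 peaks with BATF and IRF4 were higher and 102 lower, and 160 of 615 with neither were higher and 92 lower. With cyclic loess normalisation the medians of these 2 classes were 0.12 and -0.17. Leaving out cTreg replicate 1 gave 511 and 53 with BATF and IRF4 and 183 and 184 with neither. WT Treg against cTreg cells gave 863 and 163 in the first class and 379 and 892 in the last, and shares the cTreg libraries. Directly between Batf-/- and WT Treg cells, 154 peaks with BATF and IRF4 (7.19%) and 63 with neither (2.16%) were lower, against 3.91% of all peaks. With IRF4 only 24 peaks (6.03%) were lower, and with BATF only 9 (0.959%), a smaller share than with neither. The lower peaks thus did not follow overlap with BATF alone.

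Likeness was also measured by the interval of each difference. At 1536 peaks (24.0%) Batf-/- Treg and cTreg cells were not called different and the 95% interval of the fold change lay within 2-fold in both directions. At 2629 peaks (41.1%) no difference was called but the interval reached 2-fold, and these had a lower median level, 23.1 against 37.2 normalised reads. The interval lay wholly above 2-fold higher at 427 peaks and wholly beyond 2-fold lower at 102. Whether an interval reached 2-fold through the estimate or through the spread of the libraries was not separated.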

How the data were processed

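The deposited Foxp3 table gives a normalised score (signal) for each peak in each library, mostly over 400 bp. The submitters' processing notes name DiffBind 3.12.0, edgeR 3.38.4, MACS2 2.2.7.1 and Bowtie2 2.4.1 and the build mm10, but their roles, order and filters are not given in the sources used here. Every deposited value was a whole number of reads (within 0.01) times 1 factor per library, and these factors lay within 2.14% of TMM factors, so a change common to most peaks would be scaled away. Input libraries were not used.

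All 8 Foxp3 libraries were fitted together, as log2 of value plus 1, in limma 3.58.1 (R 4.3.3) with a mean-dependent spread. Two-sided p-values received the Benjamini-Hochberg adjustment over 6396 peaks and were called under 0.05. Fold changes understate low peaks. The labels do not say whether replicates are separate animals, so p-values measure the spread between these libraries. The tests were checked on data simulated for Batf-/- Treg against cTreg cells over 6396 peaks with a known set of changes, where limma's share of false calls lay above its nominal level and that of edgeR near it. edgeR 4.0.16 and DESeq2 1.42.0 on recovered reads were alternatives.

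A peak was named after the protein-coding gene nearest its centre within 100000 bp (RefSeq, GRCm38.p6), whether or not it acts on that gene. Of all peaks 94.8% were assigned and 67.0% lay in a gene body. Peak coordinates are the authors' own, and their first base (0 or 1) is not known. The members and gene lists were chosen with earlier results of these data known. Named peaks were the strongest peak of each of 33 genes (31 had one), up to 3 genes per list by smallest p, the 8 largest changes in each direction above the median level without overlap between groups, and 3 promoter peaks in each direction. Some of these peaks are not reported here. Lists may share genes.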

Additional observations from a re-analysis of the deposited data

How the results depend on the processing

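Of the 15 alternatives, DESeq2 gave 330 peaks lower in Batf-/- Treg than in cTreg cells in place of 846, beside 993 higher in place of 1385, and leaving out peaks under the 25th percentile of the mean gave 528 lower beside 1334 higher. The share of calls that were higher was 75.1% and 71.6% there, against 62.1%, and the filter moved the median log2 fold change to 0.17 and quantile normalisation to -0.11. Leaving out 1 library gave 927 to 1367 higher and 287 to 824 lower peaks, 1781 to 2205 calls for WT Treg against cTreg, 1030 to 1174 for eTreg against cTreg and 1517 to 2348 for Batf-/- Treg against eTreg cells. For Batf-/- against WT Treg cells it gave 108 to 571 calls in place of 285, and DESeq2 gave 136, the filter 184 and quantile normalisation 174. The cause of these shifts was not tested, except that the filter and the left-out libraries leave fewer peaks or samples to test. Both directions of the main comparison stayed within 1.5 times the main count with edgeR (1387 and 946), TMM scaling, pseudocounts of 0.25 and 4, no trend, quantile and cyclic loess normalisation and a fit of the compared libraries alone. Of 80 named peaks 65 kept their side of the threshold under all alternatives. Of the 57 called ones, 1 changed sign, at Il2ra (-0.0037 with cyclic loess normalisation), and of the 23 not called 12 did, among them Foxp3 (-0.14 to 0.70), Ctla4 (-0.42 to 0.11), Ccr7 (-0.34 to 0.42) and Lef1 (-0.07 to 0.57).

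The replicate numbers are not stated to pair samples, and same-numbered Batf-/- Treg and cTreg libraries did not deviate together (r = -0.07). With the replicate number as a block 1399 peaks were higher and 844 lower. It ended the calls at Lrrc32 (adjusted p = 0.0508) and Olig3 (0.0514) and added one at Ets1 (0.0485). With 2 libraries a group and 164740 to 393310 reads in peaks, weak peaks bound a difference poorly, and genotype and sort cannot be told apart.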

Other observations

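Chromosome X held 159 Foxp3 peaks, of which 24 (15.1%) were higher and 26 (16.4%) lower in Batf-/- Treg than in cTreg cells, beside 21.7% and 13.2% of all peaks, with a median log2 fold change of -0.30. Above the median level of all peaks 20 of 60 (33.3%) were higher and 7 (11.7%) lower, with a median of 0.23, beside 33.1% and 8.60% of all such peaks. The 335 peaks with no protein-coding gene within 100000 bp included 98 higher and 55 lower ones, and 34 of them (10.1%) were lower in Batf-/- than in WT Treg cells, against 3.91% of all peaks. Peaks within gene bodies made up 55.5% of the higher and 68.1% of the lower peaks, and 67.0% of all. Of 1777 assigned peaks outside gene bodies, 518 (29.2%) were higher and 215 (12.1%) lower. These peaks had a median mean of 35.0, and those in gene bodies one of 28.1. Limited to peaks above the median level, 35.0% of 1115 outside and 31.0% of 1890 in gene bodies were higher, beside 33.1% of all such peaks. The level of BATF in WT Treg cells, at Foxp3 peaks that overlap a BATF peak, had a median of 106 normalised reads where Foxp3 was higher in Batf-/- Treg than in cTreg cells, 56.7 where it was lower and 93.5 over all such peaks. The peak 1266 bp from Gzmk, which encodes a granzyme, had 6.10 and 1.29 in Batf-/- Treg, 12.1 and 24.2 in WT Treg, 36.7 and 39.2 in eTreg and 7.99 and 6.67 in cTreg cells. It did not pass the test against cTreg cells (limma, adjusted p = 0.136), and passed it without Batf-/- Treg replicate 1 (log2 fold change -1.86, adjusted p = 0.00906; range over 14 alternatives 0.00906 to 0.762).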
